A study of Mus musculus with 4 samples.

Results

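Potassium channel genes were taken as all gene symbols starting with *Kcn*, which covers the pore-forming subunits of potassium channels, their accessory subunits and 3 noncoding genes named after a channel gene. Of 98 such symbols in the RefSeq gene table for the mouse, 85 carried counts in the hypothalamus libraries, out of 16329 named genes counted, and 77 of the 85 passed the filter on low counts and were tested among 14325 genes. The 13 symbols without a counted transcript were *Kcna7*, *Kcna10*, *Kcnd3os*, *Kcne1*, *Kcne3*, *Kcnj1*, *Kcnj15*, *Kcnk15*, *Kcnk16*, *Kcnk18*, *Kcnmb3*, *Kcnrg* and *Kcnv2*.

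Potassium channels let potassium ions leave or enter the cell along their gradient, and so set the resting potential of a neuron, end the action potential and space out firing. Voltage-gated channels open on depolarization, inward rectifiers and leak channels hold the membrane near rest, and calcium- and sodium-activated channels open after a spike. In the hypothalamus, potassium channels that close when ATP rises couple the firing of feeding-related neurons to glucose, and channels opened by G proteins carry the inhibition exerted by neuropeptides, while in glia an inward rectifier takes up the potassium that neurons release.

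The libraries were made from RNA of the hypothalamus of male C57BL/6 mice that received a Western diet (WD), a food with 60% fat together with a 30% sucrose solution to drink, for 12 weeks. WT WD mice, which are wild-type littermates, were compared with Tas1r3-/- WD mice, which lack the sweet and umami taste receptor subunit Tas1r3 in the whole body, so that an effect in the hypothalamus and one that reaches it from another organ cannot be told apart. Each group had 2 libraries, both groups received the diet, and no comparison with another diet is made here. The labels give age-matched groups without an age, and mice weighing 23 to 25 g when they were housed for the study, not when the tissue was taken. They do not say whether a library holds 1 mouse, and the study's methods describe 3 mice per group, against 2 libraries per group here. The p-values thus measure the spread between these libraries, which may be technical. Summed over transcripts, the libraries held 5874782 to 6273772 estimated counts, so that 3 counts, the limit that a count of 0 allows, correspond to 0.482 to 0.526 counts-per-million units (CPM, with library sizes scaled by TMM). Values for 4 libraries are given below in the order WT WD 1, WT WD 2, Tas1r3-/- WD 1 and Tas1r3-/- WD 2.

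*Tas1r3* itself had 35.3, 27.0, 7 and 7.01 estimated counts, so both libraries labelled as knockout were lower than both wild-type libraries. Its log2 fold change was -2.13 with a standard error of 0.42 (edgeR quasi-likelihood test, adjusted p = 0.754). The tissue label was then compared with marker genes. A list of 12 hypothalamic peptide genes, among them *Agrp*, *Hcrt* and *Avp*, summed to 2048, 64.4, 1477 and 1432 CPM, and each of the 12 was lowest in WT WD 2. A list of 12 genes of the thalamus, the region that adjoins the hypothalamus, summed to 855, 4428, 892 and 1193 CPM, with each of the 12 highest in WT WD 2. The library labelled WT WD 2 thus held few of the peptide transcripts that define the labelled tissue, and every mean over the WT WD group rests on it for 1 of its 2 values. Choroid plexus genes summed to 59.4, 764, 52.9 and 41.7 CPM, red blood cell genes to 272, 1348, 532 and 335 CPM, and cortical and hippocampal genes to 218, 514, 209 and 202 CPM, each highest in the same library. Pituitary genes summed to 14.6, 2.31, 1456 and 4.56 CPM, most of it *Gh* and *Prl* in Tas1r3-/- WD 1, and *Tshb* was at 0 in both WT WD libraries. Pan-neuronal genes summed to 3947, 5476, 3732 and 4062 CPM and striatal genes to 294, 213, 426 and 265 CPM. The sums of the glial, ependymal and vascular lists differed less between libraries, with 3588, 3530, 3669 and 3791 CPM for astrocytes, 5437, 6695, 6426 and 6523 CPM for oligodendrocytes, and 324, 297, 342 and 278 CPM for microglia. The lists for endothelium and pericytes held 396, 459, 390 and 363 CPM, and those for ependyma and tanycytes 142, 146, 132 and 117 CPM. Within the last list the tanycyte genes *Col23a1*, *Rax* and *Crym* were lowest in WT WD 2 (2.64 CPM for *Col23a1*, against 27.4 to 50.7 CPM in the other 3). The ciliated-cell genes *Foxj1*, *Ccdc153* and *Tmem212* were highest there (57.0 CPM for *Foxj1*, against 27.1 to 31.1 CPM). The remaining members were *Dio2*, at 9.79, 15.8, 23.9 and 20.3 CPM and lowest in WT WD 1, and *Rarres2*, at 26.3, 32.3, 18.2 and 18.8 CPM and highest in WT WD 2. The part of these markers in the differences between groups was not tested, and the main results on the channel genes are therefore given with and without WT WD 2.

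No potassium channel gene differed between Tas1r3-/- WD and WT WD mice at an adjusted p under 0.05 and a change of at least 1.5-fold in edgeR's quasi-likelihood test, and neither did any other gene (0% of 14325). At an unadjusted p under 0.05, 772 genes (5.39%) and 0 of the 77 channel genes passed, and the smallest p among the channel genes was 0.0646, for *Kcnk9*, with an adjusted p of 0.754. DESeq2, run without the filter on low counts, called 8 genes, none of them a channel gene. It gave 4 of 85 channel genes (*Kcnj9*, *Kcnj12*, *Kcnj13* and *Kcnk9*) an unadjusted p under 0.05, against 2.52% of all genes. *Kcnj13* did not pass that filter and was high only in WT WD 2, so its p carries no weight. Without WT WD 2, the edgeR log2 fold changes of *Kcnj9*, *Kcnj12* and *Kcnk9* went from -0.97, -1.27 and 1.05 to -0.15, -0.17 and 0.53. In limma-trend 0 genes were called, and 1 of 77 channel genes had an unadjusted p under 0.05, against 5.44% of all genes. Of the 77 channel genes, 36 were higher and 41 lower on average in the knockout group, against 49.0% of all genes tested with a higher mean. The log2 fold changes ran from -3.28 to 1.15 with a median of -0.10, against -0.01 over all genes tested, and without WT WD 2 the median was 0.05 against 0.00. In bulk tissue, fewer cells of a type and less RNA per cell cannot be told apart.

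The larger contrast lay between the WT WD libraries. Together the channel genes made up 0.415%, 0.550%, 0.441% and 0.460% of the CPM of the 4 libraries, with WT WD 2 the highest and the knockout libraries between the wild-type libraries. WT WD 2 was the highest of the 4 libraries for 41 of 77 channel genes, or 53.2%, against 33.9% of all genes tested, and the lowest for 24, or 31.2%, against 34.6%. The WT WD replicates lay at least 1 log2 unit apart in 26 channel genes (33.8%, against 10.6% of all genes), with 15 higher and 11 lower in WT WD 2, whereas the Tas1r3-/- WD replicates did so in 2 (2.6%, against 2.33%). The root mean square difference between the WT WD replicates was 1.13 log2 units over the channel genes and 0.76 over all genes tested, and that between the Tas1r3-/- WD replicates was 0.37 for both. For 59 of the 77 genes (76.6%, against 64.3% of all genes) the knockout mean was nearer to WT WD 1 than to WT WD 2.

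**Figure D1:**
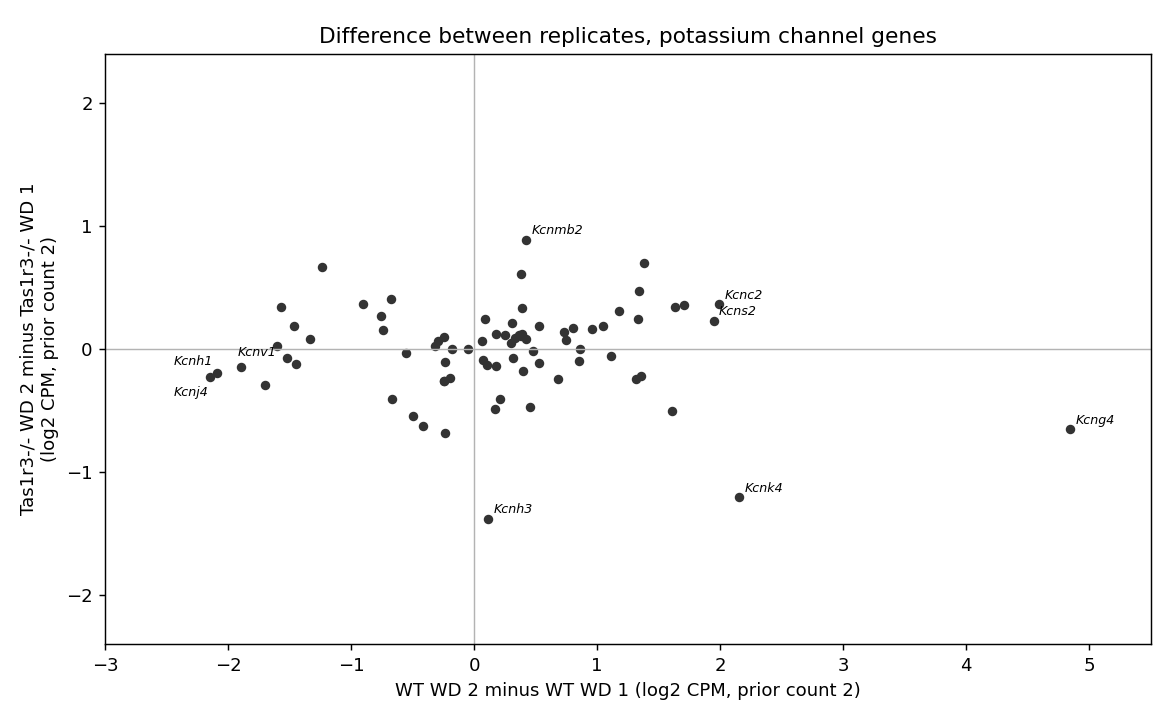
Difference between the replicates of each group in log2 CPM (prior count of 2), WT WD 2 minus WT WD 1 on the horizontal axis and Tas1r3-/- WD 2 minus Tas1r3-/- WD 1 on the vertical axis, with 1 point for each of the 77 channel genes tested. The points spread along the horizontal axis, with 26 genes at least 1 log2 unit from 0 there and 2 on the vertical axis (*Kcnh3* and *Kcnk4*).

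The group comparison was repeated with each WT WD library alone, the lone library being assumed to vary like the knockout pair. Against WT WD 2 alone, 2121 of 14820 genes (14.3%) and 25 of 79 channel genes (31.6%) were called by edgeR at the same thresholds, 9 of the channel genes higher and 16 lower in the knockout. The 9 higher than in WT WD 2 were *Kcna5*, *Kcnc4*, *Kcnh1*, *Kcnh4*, *Kcnip2*, *Kcnj4*, *Kcnk2*, *Kcnk9* and *Kcnv1*, with log2 fold changes of 0.77 (*Kcnc4*) to 2.59 (*Kcnj4*). The 16 lower were *Kcna4*, *Kcnab1*, *Kcnc2*, *Kcnd2*, *Kcne2*, *Kcng4*, *Kcnip4*, *Kcnj9*, *Kcnj12*, *Kcnj13*, *Kcnma1*, *Kcnmb4*, *Kcnmb4os2*, *Kcnn1*, *Kcnq3* and *Kcns2*, with log2 fold changes of -0.79 (*Kcnq3*) to -4.22 (*Kcng4*) among those tested with all 4 libraries. *Kcne2* and *Kcnj13* were not, and passed the filter on low counts there through WT WD 2, where they are high, so their calls carry no weight and 23 calls among 77 genes remain. Each of these calls compares the knockout pair with 1 library. Against WT WD 1 alone, 32 of 14694 genes (0.218%) and 0 of 77 channel genes were called. The direction of the difference was the same with and without WT WD 2 for 42 of the 77 channel genes (54.5%), compared with 72.8% of all genes. A difference of at least 1.5-fold was seen for 19 channel genes with all 4 libraries and for 7 without WT WD 2, and 2 genes (*Kcnh3* and *Kcnh7*) had it in both with the same sign.

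**Figure D2:**
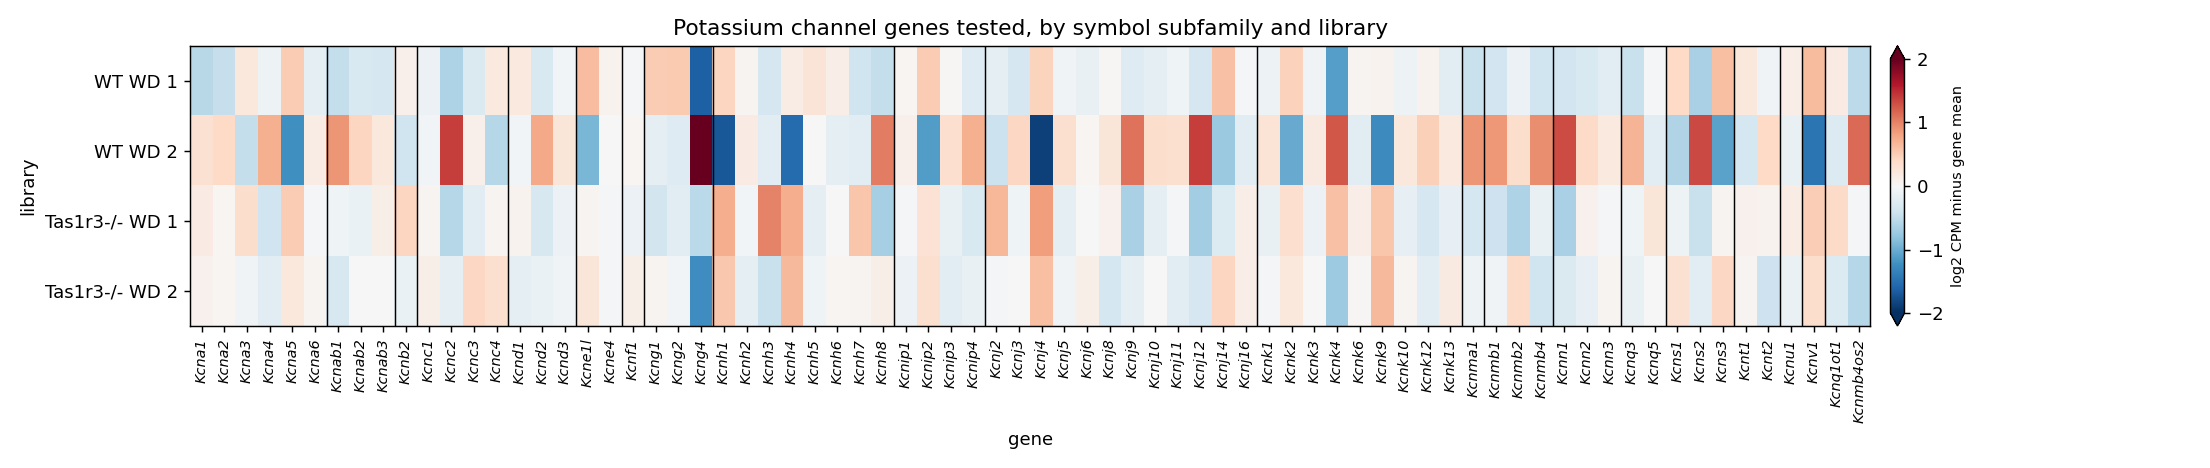
Log2 CPM minus the gene's mean over the 4 libraries for 74 of the channel genes tested, with genes in columns ordered by symbol, black lines between subfamilies and 1 row per library (colours end at 2 units either side of 0). The row of WT WD 2 holds most of the strong colours in both directions, and the other 3 rows are paler.

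Levels were compared between genes per kilobase of the canonical transcript, which was found for 76 of the 77 genes tested (median length 4320 bases, against 3531 over all genes with a length). *Kcnj10*, the inward rectifier of astrocytes and oligodendrocytes, stood at 82.5, 119, 81.8 and 93.3 CPM per kilobase. *Kcnc1*, a fast voltage-gated channel of rapidly firing neurons, held 57.5, 60.1, 65.1 and 68.2 CPM per kilobase, below *Kcnj10* in every library. Other genes with high mean levels were *Kcnab2* (56.3), *Kcnj9* (41.0), *Kcnip3* (37.6), *Kcnip4* (34.4) and *Kcnk1* (32.4 CPM per kilobase), and neighbours among these 5 overlapped in their ranges over libraries. Lengths of other isoforms would change these values, as with *Kcnn2*, whose canonical transcript is short.

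**Figure D3:**
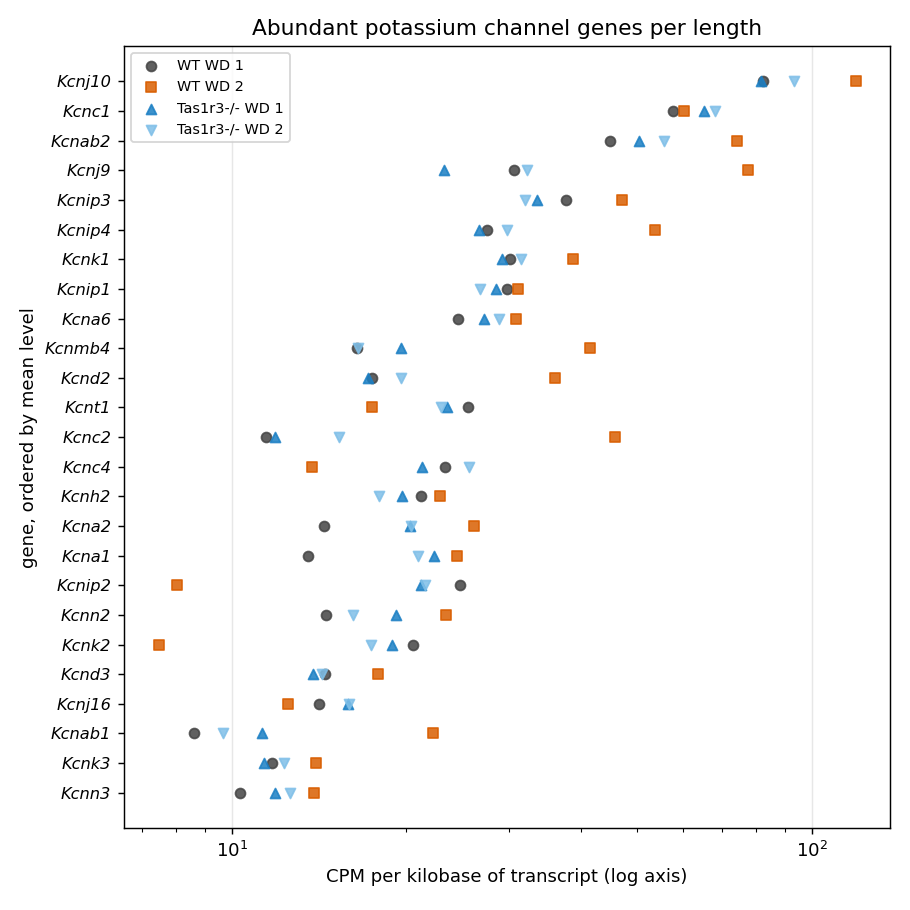
Level of 25 abundant channel genes in CPM per kilobase of canonical transcript (log axis), with 1 symbol per library and genes ordered by their mean. *Kcnj10* has the highest mean of the genes drawn, and the squares of WT WD 2 lie furthest from the other 3 symbols in genes such as *Kcnj9*, *Kcnc2* and *Kcnip2*.

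Among the 27 voltage-gated pore-forming genes tested, 16 were higher and 11 lower on average in the knockout, with a median log2 fold change of 0.05 (0.16 without WT WD 2) and 0 called. *Kcna1* and *Kcna2* encode the axonal channels that limit repetitive firing. *Kcna1* had 54.5, 98.5, 90 and 84.3 CPM, and *Kcna2* had 167, 304, 236 and 236 CPM. In both genes the knockout libraries lay between the wild-type libraries, with log2 fold changes of 0.19 (SE 0.30) and 0.00 (SE 0.30). Without WT WD 2 these became 0.68 and 0.50, with adjusted p = 0.056 and 0.127 in edgeR, the first being the smallest adjusted p of any channel gene in that comparison. *Kcna5* had 29.2, 8.73, 29.1 and 23.7 CPM, lowest in WT WD 2, and *Kcna6*, the most abundant *Kcna* gene per length, had 144, 180, 159 and 169 CPM. *Kcna4*, a rapidly inactivating channel, had 24.4, 42.8, 19.8 and 22.3 CPM, both knockout libraries below both wild-type libraries (log2 fold change -0.68, SE 0.30, and -0.22 without WT WD 2).

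Of the 4 *Kcnc* genes, *Kcnc1* had 262, 274, 297 and 311 CPM, so the knockout libraries were the higher pair (log2 fold change 0.18, SE 0.12, and 0.21 without WT WD 2). *Kcnc2*, a close relative, had 63.7, 254, 65.9 and 84.9 CPM, with WT WD 2 3.99-fold above WT WD 1 and the other 3 libraries near each other. *Kcnc4* had 106, 62.4, 96.5 and 116 CPM, with WT WD 2 the lowest. *Kcnd2* and *Kcnd3*, which carry the A-type current in dendrites, had 101, 209, 99.6 and 113 CPM and 109, 134, 104 and 108 CPM. *Kcnd3* was the one *Kcnd* gene with both knockout libraries below both wild-type libraries, with a log2 fold change of -0.20 (SE 0.16) that shrank to -0.04 without WT WD 2.

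The *Kcnh* genes encode channels of the ether-a-go-go family, and 5 of 8 had a higher mean in the knockout. *Kcnh4* had 5.84, 1.81, 8.67 and 8.24 CPM, the highest log2 fold change of the 77 genes (1.15, SE 0.56, adjusted p = 0.754 in edgeR, and 0.53 without WT WD 2), from 11.0 to 54.4 estimated counts per library. *Kcnh7* had 5.67, 6.43, 10.9 and 7.71 CPM, again with both knockout libraries above both wild-type libraries, and its log2 fold change of 0.62 (SE 0.30) was 0.72 without WT WD 2, 0.35 without Tas1r3-/- WD 1 and 0.30 with an offset for transcript length. *Kcnh2*, best known for repolarizing heart muscle and also used by neurons, had 93.3, 101, 86.4 and 78.9 CPM, the reverse order of groups (log2 fold change -0.23, SE 0.13, and -0.17 without WT WD 2). *Kcnh1* had 51.5, 11.9, 63.9 and 55.9 CPM, where 3 libraries lay close together and WT WD 2 was 4.34-fold below WT WD 1. The knockout replicates were furthest apart for *Kcnh3*, at 5.15, 5.6, 12.9 and 4.73 CPM, so its higher mean rested on 1 library.

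*Kcnq3* encodes a subunit of the M-current, which opens below the spike threshold and restrains firing. It had 74.7, 162, 95.1 and 91.5 CPM, with WT WD 2 the highest, and its log2 fold change of -0.34 (SE 0.37) became 0.32 without that library. *Kcnq5* had 31.4, 27.4, 38.1 and 32.3 CPM, the knockout libraries above the wild-type libraries by a small margin (log2 fold change 0.26, SE 0.17, and 0.16 without WT WD 2). *Kcnq1* was at 3.00 to 7.34 estimated counts per library and was not tested.

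Genes of the silent subunits (*Kcnf*, *Kcng*, *Kcns* and *Kcnv*), which form no channel alone and modify other voltage-gated channels, held the widest difference of the family. *Kcng4* had 2.4, 78.6, 5.14 and 3.16 CPM, from 14.0, 477, 32.1 and 18.0 estimated counts. WT WD 2 was 32.7-fold above WT WD 1, and the other 3 libraries lay within a few CPM of each other. The log2 fold change over the groups was -3.28 (SE 1.5, adjusted p = 0.754 in edgeR), and 0.79 without WT WD 2. *Kcns2* had 19.9, 77.8, 23.0 and 27.0 CPM, again high in WT WD 2 alone (log2 fold change -0.97, SE 0.63, and 0.32 without that library). *Kcnv1* was lowest there, at 7.04, 1.65, 6.43 and 5.79 CPM, while *Kcnf1* was close in all 4 libraries, at 52.6, 55.9, 49.8 and 59.1 CPM. In all, 4 of the 8 silent subunits tested were higher and 4 lower on average in the knockout, and the groups overlapped in each of the 8 (20.6% of all genes had the knockout pair above and 19.0% below).

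Of the 12 inward rectifier genes tested, knockout means were higher for 5 and lower for 7 (median log2 fold change -0.17, and 0.03 without WT WD 2). *Kcnj10* had 447, 645, 443 and 506 CPM, with WT WD 2 the highest and the knockout libraries on both sides of WT WD 1 (log2 fold change -0.20, SE 0.22, and 0.09 without WT WD 2). *Kcnj16*, whose product pairs with that of *Kcnj10* in glia, had 51.5, 45.5, 57.8 and 57.9 CPM. Both knockout libraries were above both wild-type libraries, with a log2 fold change of 0.25 (SE 0.13, adjusted p = 0.754 in edgeR) and of 0.17 without WT WD 2. Among the astrocyte markers, *Aqp4* had 88.6, 154, 107 and 94.9 CPM and *Gfap* had 340, 186, 365 and 254 CPM, in opposite order in the wild-type libraries, and their part in the level of *Kcnj10* was not tested.

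Pores opened by G proteins had both higher and lower means in the knockout. *Kcnj9* had 120, 304, 90.9 and 127 CPM (log2 fold change -0.97, SE 0.47, and -0.15 without WT WD 2), with WT WD 2 2.53-fold above WT WD 1. *Kcnj6* had 12.2, 13.8, 13.3 and 14.6 CPM, all 4 libraries close together, and *Kcnj3* had 44.8, 75.3, 53.3 and 56.3 CPM. *Kcnj5* had 17.3, 22.7, 15.9 and 17.2 CPM, with the knockout libraries below the wild-type libraries by a small margin. The ATP-sensitive pores, through which glucose-sensing neurons respond, were *Kcnj11*, at 24.7, 32.6, 25.7 and 22.6 CPM, and *Kcnj8*, at 4.81, 5.6, 4.98 and 3.68 CPM. Neither separated the groups, with log2 fold changes of -0.25 (SE 0.20) and -0.26 (SE 0.34) that were -0.03 and -0.15 without WT WD 2. Their sulfonylurea receptors *Abcc8* and *Abcc9* had 30.4, 35.8, 26.3 and 27.9 CPM and 8.24, 14.3, 9 and 11.0 CPM.

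The classical strong inward rectifiers, which clamp the membrane near the potassium equilibrium, went different ways. *Kcnj12* had 20.6, 68.0, 16.1 and 20.7 CPM, and *Kcnj4* had 10.6, 2.14, 14.0 and 11.9 CPM. WT WD 2 was thus 3.30-fold above WT WD 1 for *Kcnj12* and 4.97-fold below it for *Kcnj4*, and the log2 fold changes of -1.27 (SE 0.58) and 1.02 (SE 0.70) were -0.17 and 0.28 without WT WD 2. *Kcnj2* had 8.59, 7.25, 15.4 and 9.47 CPM, with both knockout libraries above both wild-type libraries and a log2 fold change of 0.65 (SE 0.33) that was 0.54 without WT WD 2 and 0.26 without Tas1r3-/- WD 1. *Kcnj13*, the inward rectifier of the choroid plexus epithelium, was not tested and had 1.64, 63.0, 4.01 and 1 estimated counts. *Kcne2*, an accessory subunit of the same epithelium, had 3.00, 25.0, 4 and 1 estimated counts. Both were highest in WT WD 2, the library where the choroid plexus gene *Ttr* had 678 CPM, against 0.70 to 4.29 CPM in the other 3, and the part of choroid plexus RNA in their levels was not tested.

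Among the 9 two-pore-domain leak channel genes tested, knockout means were higher for 4 and lower for 5 (median log2 fold change -0.10, and 0.03 without WT WD 2). *Kcnk9* encodes an acid-sensitive leak channel that hyperpolarizes neurons, and lies at chr15:72372938-72419556 (GRCm39). It had 873, 359, 1309 and 1272 estimated counts, or 150, 59.1, 210 and 223 CPM, giving 105 ± 64.2 CPM in WT WD and 217 ± 9.01 CPM in Tas1r3-/- WD (SD, n = 2 each). Both knockout libraries exceeded both wild-type libraries, and the gap between the wild-type libraries was wider than that between WT WD 1 and either knockout library on the log scale. The log2 fold change was 1.05 (SE 0.44, adjusted p = 0.754 in edgeR) with all 4 libraries and 0.53 (adjusted p = 0.120) without WT WD 2. Against WT WD 2 alone it was 1.88.

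The groups overlapped in the other leak channel genes tested, apart from *Kcnk12*, at 7.21, 9.56, 5.46 and 5.96 CPM, where the knockout libraries were the lower pair. *Kcnk1*, an abundant weak inward rectifier, had 69.4, 89.3, 67.1 and 72.6 CPM (log2 fold change -0.18, SE 0.17, and 0.01 without WT WD 2). *Kcnk2*, a mechanically and thermally gated leak channel, had 74.7, 27.2, 68.6 and 63.1 CPM, with WT WD 2 2.75-fold below WT WD 1. *Kcnk3*, the closest relative of *Kcnk9*, had 58.7, 69.9, 56.9 and 61.5 CPM, where the 4 libraries overlapped, unlike *Kcnk9*. *Kcnk4* rested on few counts, with 1.89, 9.56, 6.10 and 2.45 CPM and wide gaps within both groups.

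Of the 7 calcium- or sodium-activated channel genes tested, knockout means were higher for 3 and lower for 4, and the groups overlapped in each of the 7, with the same shares of 20.6% and 19.0% over all genes. *Kcnma1*, the large-conductance calcium-activated channel, had 39.5, 99.8, 42.4 and 50.3 CPM, and its brain accessory subunit *Kcnmb4* had 22.5, 56.7, 26.8 and 22.6 CPM. In both, WT WD 2 was the highest library, 2.53-fold and 2.52-fold above WT WD 1, and the log2 fold changes of -0.59 (SE 0.45) and -0.68 (SE 0.45) were 0.23 and 0.14 without it. The small-conductance channels, which carry the afterhyperpolarization, varied in the same library to differing extents. *Kcnn1* had 7.73, 24.7, 6.43 and 8.24 CPM, *Kcnn2* had 25.1, 40.4, 33.1 and 27.9 CPM, and *Kcnn3* had 29.9, 40.2, 34.4 and 36.5 CPM, each highest in WT WD 2. *Kcnt1*, a sodium-activated channel, was lowest there, at 185, 126, 169 and 166 CPM. *Kcnu1*, known from sperm, had 3.78, 3.13, 3.86 and 3.16 CPM, and *Kcnn4* had 3.57 to 8.01 estimated counts per library and was not tested.

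Of the 12 accessory subunits tested, 9 had lower and 3 higher means in the knockout, against 49.0% of all genes tested with a higher mean. WT WD 2 was the highest library for 8 of the 12, against 33.9% of all genes tested. The median log2 fold change was -0.18, which was 0.05 without WT WD 2 (7 higher and 5 lower). *Kcnab2*, the beta subunit of axonal *Kcna* channels, had 205, 341, 230 and 254 CPM, the knockout libraries lying between the wild-type libraries (log2 fold change -0.17, SE 0.27, and 0.24 without WT WD 2). The *Kcnip* genes encode calcium-binding partners of *Kcnd* channels. *Kcnip3*, whose product also binds DNA, had 103, 129, 91.9 and 87.5 CPM, and *Kcnip1* had 68.2, 71.5, 65.4 and 61.4 CPM. For both genes the knockout pair was the lower one, with log2 fold changes of -0.37 (SE 0.16, adjusted p = 0.754 in edgeR) and -0.14 (SE 0.12) that were -0.20 and -0.10 without WT WD 2. *Kcnip4* had 62.4, 122, 60.4 and 67.5 CPM, and *Kcnip2* had 52.2, 17, 44.8 and 45.6 CPM, so that WT WD 2 was the highest library for the first and the lowest for the second. *Kcne1l*, a small modifier subunit, had 14.3, 4.94, 9.64 and 11.0 CPM, with WT WD 2 the lowest, and its log2 fold change of 0.11 (SE 0.52) was -0.46 without WT WD 2.

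The noncoding genes tested were *Kcnq1ot1*, an imprinted antisense transcript, with 10.6, 7.91, 12.4 and 7.89 CPM, and *Kcnmb4os2*, with 7.56, 23.7, 10.6 and 7.36 CPM. *Kcnmb4os2* was highest in the same library as *Kcnmb4*, and since it is not stated whether reads were counted by strand, reads of the 2 overlapping genes cannot be told apart. The remaining untested members *Kcng3*, *Kcnk5* and *Kcnk7* had at most 9 estimated counts in any library, and *Kcnmb4os1* at most 8.84.

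Groups that did not overlap were counted over all members. Both knockout libraries were above both wild-type libraries in 9 of 77 genes, or 11.7%, against 20.6% of all genes tested, and below in 10, or 13.0%, against 19.0%. The 9 were *Kcnc1*, *Kcnh1*, *Kcnh4*, *Kcnh7*, *Kcnj2*, *Kcnj4*, *Kcnj16*, *Kcnk9* and *Kcnq5*. The 10 included *Kcna4*, *Kcnd3*, *Kcne4*, *Kcnh2*, *Kcnh5*, *Kcnip1*, *Kcnip3*, *Kcnj5* and *Kcnk12*, of which *Kcne4* had 11.0 to 12.0 estimated counts in every library. Without WT WD 2, both knockout libraries were above WT WD 1 in 29 of 77 channel genes (37.7%, against 37.5% of all genes) and below it in 23 (29.9%, against 37.5%).

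**Figure D4:**
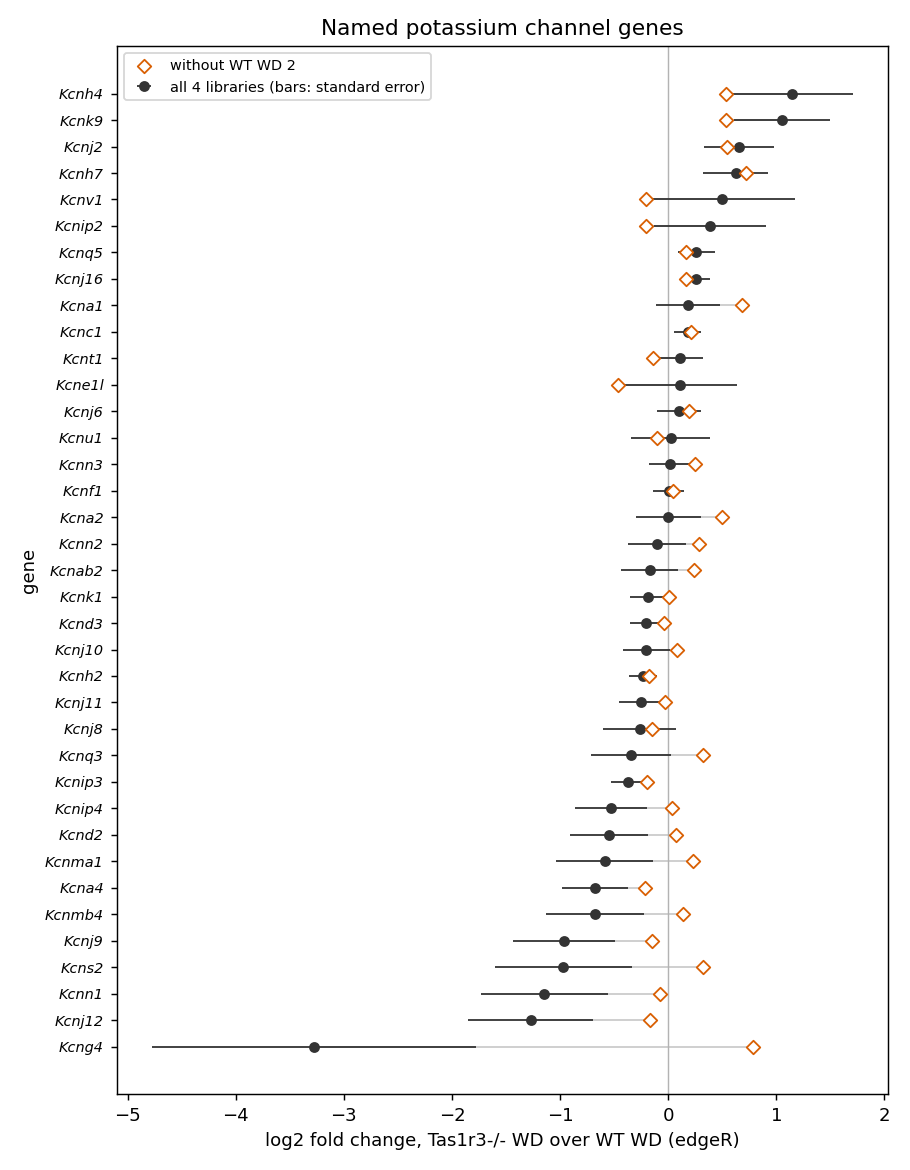
Log2 fold change of Tas1r3-/- WD over WT WD for 37 of the named channel genes tested, ordered by the fit with all 4 libraries (filled circles, bars of 1 standard error), beside the fit without WT WD 2 (open diamonds). For the 5 genes at the bottom of the order the diamonds lie closer to 0 than the circles, and *Kcng4* moves from -3.28 to 0.79.

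Promoters were read for a feature that the choice by name did not use. The cAMP response element TGACGTCA, bound by a factor that calcium and cAMP activate in neurons, was searched on both strands in the 250 bases before the canonical transcript start (GENCODE M39 on GRCm39). It was found in 0 of 76 channel genes and in 285 of 13943 genes tested (2.04%). Its half-site, TGACG or CGTCA, was found in 10 of 76 channel genes (13.2%), against 22.5% of all genes, and the median GC content of the window was 60.4% for channel genes and 56.8% for all genes. A half-site is also part of any full element. The windows shown are those of *Kcnc1*, *Kcnh7* and *Kcnk9*, in which both knockout libraries were above both wild-type libraries. They are printed 5′ to 3′ on the strand of the gene, with the half-site in capitals, from chr7:46045626-46045673 (plus strand, *Kcnc1*), chr2:63014911-63014968 (minus strand, *Kcnh7*) and chr15:72419580-72419644 (minus strand, *Kcnk9*).
Kcnc1: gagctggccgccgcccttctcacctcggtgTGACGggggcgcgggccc
Kcnh7: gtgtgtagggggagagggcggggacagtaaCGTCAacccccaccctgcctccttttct
Kcnk9: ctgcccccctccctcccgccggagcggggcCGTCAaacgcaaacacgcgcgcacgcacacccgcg
The half-site begins 18 bases before the start in *Kcnc1*, 28 in *Kcnh7* and 58 in *Kcnk9*. The half-site was also found for *Kcnq5*, in which the knockout pair was the higher one, for *Kcnh5*, in which it was the lower one, and for *Kcnk6*, *Kcnn2*, *Kcnq1ot1* and *Kcnt2*, in which the groups overlapped. A match describes these letters and is not a measured binding site.

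At the level of RefSeq transcripts, 137 *Kcn* transcripts were among 25636 tested, and 0 of either passed the thresholds in edgeR. Of the *Kcn* transcripts, 3 (2.19%) had an unadjusted p under 0.05, against 4.58% of all transcripts, and the smallest adjusted p was 0.938. The 3 were NM_001252654 of *Kcnab2*, with 348, 462, 308 and 182 estimated counts, NM_019789 of *Kcnip3*, with 420, 529, 340 and 292, and NM_001164427 of *Kcnk13*, with 42.9, 70.8, 11.7 and 21.8. In each, both knockout libraries were below both wild-type libraries, and for *Kcnk13* the gene as a whole had 14.8, 19.4, 15.3 and 19.3 CPM, with the groups overlapping. The split of counts between transcripts of 1 gene is itself an estimate.

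Genes that work with potassium channels but lack the prefix were taken from 3 lists, and 0 of their members were called. Of 15 accessory subunits and scaffolds tested, 9 were higher and 6 lower in mean in the knockout (median log2 fold change 0.03, and 0.04 without WT WD 2). Both knockout libraries were above both wild-type libraries in 4 of the 15, against 20.6% of all genes. They were below in 3 (*Abcc8*, *Dlg4* and *Lrrc55*), against 19.0%. *Lrrc55*, an accessory subunit of the large-conductance calcium-activated channel, had 64.9, 288, 64.1 and 54.9 CPM, high in the same library as *Kcnma1* and *Kcnmb4*. *Ank3*, the scaffold that anchors sodium and potassium channels at the axon initial segment, had 223, 215, 288 and 267 CPM, with both knockout libraries above both wild-type libraries (log2 fold change 0.34, SE 0.13, adjusted p = 0.754 in edgeR, and 0.32 without WT WD 2). The 4 HCN channel genes, which carry the hyperpolarization-activated cation current, split into 2 higher and 2 lower, with *Hcn4* at 30.7, 77.3, 33.3 and 37.0 CPM. The 14 potassium pumps and cotransporters had 8 higher and 6 lower means and a median log2 fold change of 0.03, which was 0.02 without WT WD 2. Immediate early genes, which neurons switch on when they fire, summed to 283, 289, 413 and 438 CPM, and 0 were called. Both knockout libraries were above both wild-type libraries in 7 of 11 genes, against 20.6% of all genes. They were below in 1, against 19.0%, which was *Npas4*, at 18.4, 16.5, 13.7 and 16.1 CPM. Knockout means were higher for 8 of the 11 and lower for 3 (*Npas4*, *Ier2* and *Dusp1*). The median log2 fold change of this list was 0.48, and 0.50 without WT WD 2, where the knockout pair is compared with 1 library. In that comparison *Egr1*, *Egr3* and *Fosb* had log2 fold changes of 0.86, 2.20 and 2.29, and *Npas4* had -0.31.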

How the data were processed

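Total RNA of the hypothalamus was sequenced in 4 libraries, 2 WT WD and 2 Tas1r3-/- WD. The authors deposited estimated counts per RefSeq transcript, not normalized, for 30930 transcripts. STAR, Partek and the mm39 build are named in the submitters' processing notes, and versions and strand settings are not given in the sources used here. The single-library files held the same values as the joint table.

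Transcripts were summed per gene symbol and rounded. The 147 transcripts without a symbol (0.583 to 2.66% of a library's counts) were left out. edgeR 4.0.16 in R 4.3.3 was used with filterByExpr, TMM scaling, the quasi-likelihood test and Benjamini-Hochberg adjustment over all genes tested. A gene was called at an adjusted p under 0.05 and a change of at least 1.5-fold. The study's methods name DESeq2, which was run as an alternative. The standard error is the absolute log2 fold change divided by the square root of F. DESeq2 1.42.0 and limma 3.58.1 were run as alternatives, and the scripts were tested on simulated data. An earlier edgeR quasi-likelihood method was added after the data were seen. CPM used TMM-scaled library sizes. With 2 libraries per group, fold changes carry the standard errors given, and floors cover counting error only.

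The members and lists were chosen with earlier results of these data known. Named genes were the most abundant tested member of each subfamily, the 6 members with the smallest p in each direction, any member called, and a list of 20 members. Others, such as *Kcnc2*, *Kcnh1*, *Kcnj4*, *Kcnk2* and *Kcna5*, were named after their values were seen. Marker lists covered neurons, hypothalamus, thalamus, cortex and hippocampus, striatum, pituitary, choroid plexus, ependyma, astrocytes, oligodendrocytes, microglia, endothelium, red blood cells and immediate early genes. Protein features were planned but not analysed here, and values of a few listed genes are not reported here. Promoter windows were read from GRCm39 with GENCODE M39.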

Additional observations from a re-analysis of the deposited data

How the results depend on the processing

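With 2 libraries per group and 14325 genes, a difference is hard to separate from the gap between the WT WD libraries. Scaling by RLE or total counts, limma-trend, another filter, an offset for transcript length, the earlier edgeR method and dropping the fold threshold left the counts of called genes and of called channel genes at 0. DESeq2 called 8 genes, and an unadjusted p under 0.05 with the fold threshold gave 353 genes. Replicate numbers were not shown to pair the libraries, since the WT WD 2 minus WT WD 1 and Tas1r3-/- WD 2 minus Tas1r3-/- WD 1 differences had r = 0.08 across genes. With the replicate number as a block, 0 genes and 0 channel genes were called, the median log2 fold change of the channel genes was -0.07, and no call changed. Leaving out each library in turn, with a lone library assumed to vary like the other group, gave 0 to 2121 called genes, 0 to 25 called channel genes, 15 to 29 channel genes above and 19 to 45 below without overlap (fewer libraries have less room to overlap), and medians of -0.17 to 0.049. The highest counts of calls came without WT WD 1 (2121 and 25). Several genes turned sign under settings that keep all libraries: *Kcna2* (RLE -0.0054, DESeq2 -0.0034, at least 10 counts in every library -0.0038, length offset -0.28, length offset with replicate block -0.21), *Kcnf1* (RLE -7.27e-06, length offset -0.042, with block -0.047), *Kcnt1* (length offset -0.030, with block -0.0048) and *Kcnn2* (length offset with block 0.013). Leaving out a library in turn also turned the sign of 20 named genes, with ranges of log2 fold change of *Kcna1* -0.17 to 0.68, *Kcna2* -0.36 to 0.50, *Kcnab2* -0.49 to 0.24, *Kcnd2* -0.97 to 0.072, *Kcne1l* -0.46 to 1.07, *Kcnf1* -0.13 to 0.12, *Kcng4* -4.22 to 0.79, *Kcnip2* -0.21 to 1.42, *Kcnip4* -0.92 to 0.035, *Kcnj10* -0.44 to 0.086, *Kcnk1* -0.35 to 0.0091, *Kcnma1* -1.10 to 0.23, *Kcnmb4* -1.19 to 0.14, *Kcnn2* -0.40 to 0.28, *Kcnn3* -0.18 to 0.24, *Kcnq3* -0.79 to 0.32, *Kcns2* -1.63 to 0.32, *Kcnt1* -0.14 to 0.42, *Kcnu1* -0.13 to 0.17 and *Kcnv1* -0.20 to 1.88. The cause was not tested.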
